A study of Mus musculus with 6 samples.

Results

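The VEGF and angiopoietin family was followed through 10 genes: the ligands Vegfa, Vegfc, Angpt1 and Angpt2, the receptors Kdr, Flt1, Flt4 and Tek, and the co-receptors Nrp1 and Nrp2. A region was counted as a member when the authors' annotation named 1 of these genes for it. Members made up 32 of the 58511 regions of the series, and 31 of the 58493 regions in the table that sets male against ovariectomized female cells. Vegfa had 13 regions, Flt1 9, Angpt1 4, Vegfc and Nrp2 2 each, and Kdr and Tek 1 each. Flt4, Nrp1 and Angpt2 had 0 regions, so nothing was measured for them under this rule.

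VEGF ligands are secreted proteins that bind receptor tyrosine kinases on endothelial cells, where Kdr carries most of the growth and permeability signal, Flt1 binds Vegfa tightly and can act as a decoy, and Flt4 serves lymphatic endothelium. Neuropilins hold VEGF ligands at the cell surface beside these kinases. Angiopoietins act through the kinase Tek, which Angpt1 activates to stabilize vessels, while Angpt2 acts as a context-dependent antagonist. H3K9me3, the trimethylated form of lysine 9 on histone H3, is a mark of heterochromatin and of genes that are kept silent.

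The mark was mapped by CUT&Tag, in which an antibody tethers the Tn5 transposase to chromatin so that nearby DNA is cut and tagged for sequencing, in endothelial progenitor cells (EPCs) of mouse bone marrow. EPCs were lineage-depleted marrow cells sorted on Sca-1 and CD31 and then grown in an endothelial medium, so they describe cultured cells and not cells fresh from the marrow. The groups were cells of male mice (M-EPC), of intact female mice (F-EPC) and of female mice whose ovaries had been removed (OVX-EPC), with 2 libraries each, all from C57BL/6J mice of 8 weeks, the ovariectomy having been done at about 35 days of age. Nothing in the sources ties the 2 libraries of a group to separate animals, so p-values measure only the spread between these libraries, which may be technical. M-EPC and OVX-EPC differ in sex and in surgery, and these cannot be told apart in their comparison.

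M-EPC and OVX-EPC libraries held 501237 to 573821 reads in regions. F-EPC replicate 1 held no reads after chr16:30556738-30557137 in table order and replicate 2 none after chr3:110808454-110808853, which left Nrp2 and Angpt1 as the only members that both F-EPC libraries cover. The 26999 regions up to the earlier stop are called covered below. A normalized signal is the number of reads in a region divided by a factor for the library, and a log2 fold change compares log2(signal + 1) between groups. Testing was limited to regions with a signal of at least 10 in at least 2 of the 4 libraries compared. Differences were called with limma, a linear model fitted to all tested regions at once, when the Benjamini-Hochberg adjusted p was under 0.05. Since every member region is 400 bp long, no length correction was needed. Differences between regions in repeat and GC content were not corrected for.

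Most member regions lay away from promoters. By the authors' annotation 25 of the 32 (78.1%) were distal intergenic, against 54.4% of all regions, 4 (12.5%) were in promoters, against 20.7%, 2 (6.25%) in introns, against 21.1%, and 1 (3.13%) in an exon, against 2.27%. The 13 regions of Vegfa put it among 2.33% of the 21063 named genes with that many or more, and the 9 of Flt1 among 4.66%, where the median gene had 2. Regions also came in close pairs, as 12 of the 32 (37.5%) had another region within 2 kb, against 17.3% of all regions.

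By sequence, members carried fewer repeats than distal regions at large. The median share of repeat-masked bases was 13.4% in members, 21.3% in all regions and 36.5% in all distal intergenic regions. At least 50% of the bases were masked in 4 of 32 members (12.5%), against 29.5% of all regions and 39.1% of the distal ones. Median GC content was 48.5% in members and 48.5% in all regions, with a range from 37.0% to 72.0% among members. The highest GC content, 72.0% with 49 CpG sites, belonged to the region over the start site of Nrp2, compared with a median of 60.5% and 26 CpG sites in promoter regions within 1 kb.

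Only Vegfa and Nrp2 had a region over their transcription start site (TSS), and sequence before each start is shown here from RefSeq (GRCm38), for Nrp2 the whole part of its region and for Vegfa the 250 bases nearest to the RefSeq start, with the GC-box letters GGGCGG, or CCGCCC where they lie on the other strand, in capitals. The Vegfa stretch holds the letters 2 times. The Nrp2 stretch holds them 2 times, with 1 base shared between the matches. Of the 32851 RefSeq promoter windows of 300 bases in the table used, 35.7% hold these letters on either strand, so their presence describes these windows and sets neither apart.
Vegfa promoter, chr17:46032378-46032627, minus strand: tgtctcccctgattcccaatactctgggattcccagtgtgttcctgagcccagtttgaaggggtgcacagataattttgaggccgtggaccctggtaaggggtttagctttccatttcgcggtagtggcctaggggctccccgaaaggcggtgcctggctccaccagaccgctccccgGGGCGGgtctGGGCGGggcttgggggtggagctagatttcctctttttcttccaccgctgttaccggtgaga
Nrp2 promoter, chr1:62703149-62703284, plus strand: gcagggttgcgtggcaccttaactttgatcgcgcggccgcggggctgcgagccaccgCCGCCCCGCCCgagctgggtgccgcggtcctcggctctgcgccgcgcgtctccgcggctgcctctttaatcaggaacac

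The next sequences are the central 300 bases of the regions on which the comparison turns, read from GRCm38 with bases masked as repeats in capitals. They are the strongest Vegfa region, the tested Vegfa region with the lowest unadjusted p for OVX-EPC against M-EPC, the Flt1 and Angpt1 regions with the lowest such p when no filter is used, and the single region of Kdr. The strongest Vegfa region has 0 masked bases, while 197 of the 300 bases shown from the upstream Vegfa region and 229 of those from the Flt1 region are masked. Kdr and Angpt1 each have 73.
Vegfa strongest region, chr17:45912191-45912490, plus strand: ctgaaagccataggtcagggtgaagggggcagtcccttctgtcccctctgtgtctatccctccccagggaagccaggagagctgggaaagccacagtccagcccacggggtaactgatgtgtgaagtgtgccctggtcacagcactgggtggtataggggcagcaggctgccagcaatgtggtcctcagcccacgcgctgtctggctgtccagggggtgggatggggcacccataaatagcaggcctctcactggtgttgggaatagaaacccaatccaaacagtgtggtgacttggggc
Vegfa upstream region, chr17:46048244-46048543, plus strand: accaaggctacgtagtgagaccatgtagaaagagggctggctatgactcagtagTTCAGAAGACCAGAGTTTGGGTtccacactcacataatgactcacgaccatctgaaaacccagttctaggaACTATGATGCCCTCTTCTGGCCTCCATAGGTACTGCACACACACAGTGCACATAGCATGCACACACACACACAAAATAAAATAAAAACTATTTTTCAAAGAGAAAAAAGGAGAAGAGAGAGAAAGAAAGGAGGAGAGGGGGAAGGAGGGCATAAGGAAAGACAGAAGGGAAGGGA
Flt1 upstream region, chr5:147754134-147754433, plus strand: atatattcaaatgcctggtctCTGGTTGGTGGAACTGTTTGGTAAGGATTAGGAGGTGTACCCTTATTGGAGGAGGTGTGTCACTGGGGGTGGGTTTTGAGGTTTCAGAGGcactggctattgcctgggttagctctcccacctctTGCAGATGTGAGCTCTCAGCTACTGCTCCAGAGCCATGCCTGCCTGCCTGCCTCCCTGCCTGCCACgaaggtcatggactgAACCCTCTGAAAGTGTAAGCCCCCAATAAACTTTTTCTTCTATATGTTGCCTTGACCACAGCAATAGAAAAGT
Kdr region, chr5:75975211-75975510, plus strand: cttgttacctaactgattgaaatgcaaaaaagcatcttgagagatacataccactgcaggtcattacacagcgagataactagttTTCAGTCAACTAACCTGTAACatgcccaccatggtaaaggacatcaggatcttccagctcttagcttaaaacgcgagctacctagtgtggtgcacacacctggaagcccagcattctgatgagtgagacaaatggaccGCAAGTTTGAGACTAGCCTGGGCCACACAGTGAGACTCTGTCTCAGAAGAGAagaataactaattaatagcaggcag
Angpt1 region, chr15:42919530-42919829, plus strand: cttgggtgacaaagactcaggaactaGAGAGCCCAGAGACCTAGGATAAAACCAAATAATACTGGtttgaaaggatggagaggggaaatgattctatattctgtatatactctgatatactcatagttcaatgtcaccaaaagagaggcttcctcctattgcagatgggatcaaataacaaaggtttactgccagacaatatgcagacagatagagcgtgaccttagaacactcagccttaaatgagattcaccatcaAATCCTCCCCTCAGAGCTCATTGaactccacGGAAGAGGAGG

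Levels were ordered by the mean signal per region in M-EPC. Vegfa stood highest, at 14.8 and 15.6 in M-EPC replicates 1 and 2 and 10.8 and 12.4 in OVX-EPC. Flt1 followed at 9.43 and 9.54 in M-EPC, compared with 7.09 and 6.30 in OVX-EPC. The Vegfa and Flt1 libraries did not overlap within either group, so this order holds in both. Vegfc (3.22 and 10.4), Kdr (6.45 and 6.33) and Nrp2 (8.06 and 4.52) overlapped in their M-EPC libraries and cannot be ordered, and the range of Vegfc also held Flt1. Tek had 8.60 and 0.904 and overlapped with all of them. Angpt1 was lowest by its mean, at 1.43 and 3.61, and its libraries lay within the range of Tek.

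**Figure D1:**
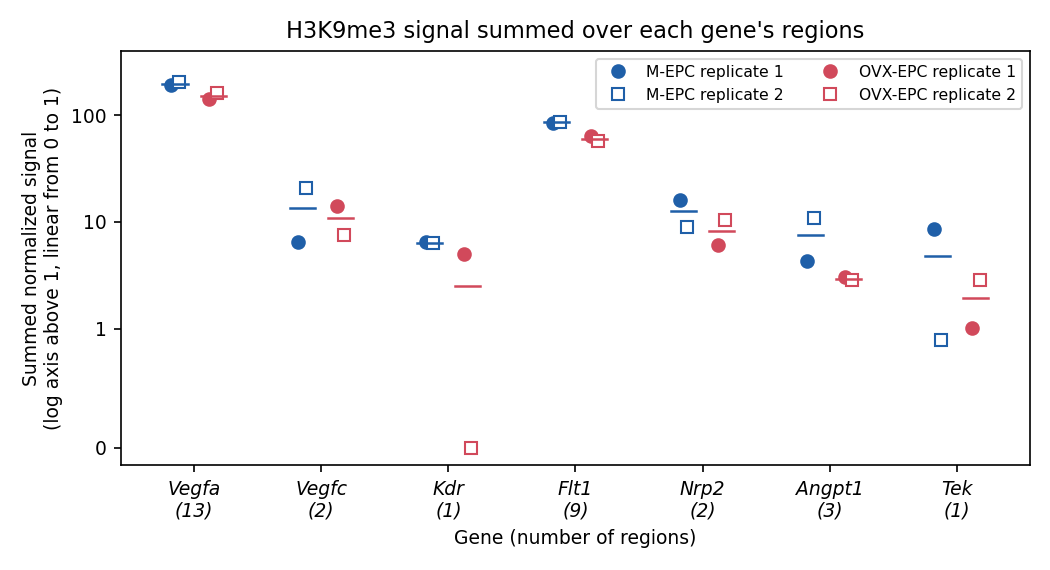
Normalized H3K9me3 signal summed over the regions of each gene, on an axis that is logarithmic above 1 and linear below, with M-EPC in blue and OVX-EPC in red, filled circles for replicate 1, open squares for replicate 2 and bars for group means. The libraries of the groups do not overlap at Vegfa, Flt1, Kdr and Angpt1, where both OVX-EPC libraries are lower, and they overlap at Vegfc, Nrp2 and Tek. Kdr held 0 to 7 reads per library and Angpt1 3 to 12, and the share of all named genes that separate was not computed.

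To determine whether the mark at these genes differs between OVX-EPC and M-EPC, each region was compared over the 4 libraries. Of the 31 member regions 11 passed the filter on low signal, 8 of Vegfa, 2 of Flt1 and 1 of Vegfc, all of them distal intergenic. None (0) of the 11 differed in limma, edgeR or DESeq2 at a Benjamini-Hochberg adjusted p under 0.05, where 0.449% of the 16931 regions tested differed in limma, 0.809% in edgeR and 0.0473% in DESeq2. At an unadjusted p under 0.05 in limma there was 1, lower in OVX-EPC, against 11.1% of all tested regions lower at that threshold. The regions of Kdr, Nrp2, Angpt1 and Tek and the promoter of Vegfa were too weak to be tested, so for them values are given and no call. The fold changes below for such regions come from the same model fitted without the filter.

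Vegfa is the main growth factor of blood vessel endothelium. Its gene lies at chr17:46016993-46032369 on the minus strand (mm10), and its regions fall into 9 beyond the 3′ end, at 43.6 to 138 kb from the TSS, 1 at the promoter and 3 upstream, at 6.92 to 16.7 kb. Summed over all 13, the signal was 192 and 202 in M-EPC, compared with 141 and 161 in OVX-EPC, that is 197 ± 7.11 and 151 ± 14.2 (SD, n = 2). The groups did not overlap, and the log2 fold change of -0.39 exceeded the pooled SD between replicates of 0.102 (two-sided exact permutation test, p = 0.333, the smallest that 2 libraries against 2 can give). Leaving out any 1 library gave values from -0.48 to -0.29. In a bulk assay, fewer cells with the mark and less of the mark per cell cannot be told apart. The 9 regions beyond the 3′ end summed to 144 and 162 in M-EPC, compared with 110 and 131 in OVX-EPC, for a log2 fold change of -0.34 with a pooled SD of 0.146. The 3 upstream regions summed to 37.6 and 35.2 in M-EPC, compared with 21.3 and 24.6 in OVX-EPC, for a log2 fold change of -0.65 with a pooled SD of 0.111. Both parts were lower in each OVX-EPC library than in either M-EPC library, and whether they differ from each other was not tested.

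The upstream region at chr17:46048194-46048593, 16.0 kb before the TSS, had the lowest unadjusted p of the tested members. It held 22 and 23 reads in M-EPC, compared with 10 and 17 in OVX-EPC, signals of 22.2 ± 2.02 and 13.1 ± 4.21 (SD, n = 2). Both OVX-EPC libraries were below both M-EPC libraries. The log2 fold change was -0.75 ± 0.35 (SE; limma, unadjusted p = 0.040, Benjamini-Hochberg adjusted p = 0.29), and adjusted p ran from 0.27 to 1.00 over the alternatives. The log2 fold change was -0.44 without OVX-EPC replicate 1 and -1.06 without OVX-EPC replicate 2, and the unadjusted p was 0.078 with TMM scaling, 0.10 in edgeR and 0.33 in DESeq2. Its neighbour at chr17:46048855-46049254 held 11 and 13 reads in M-EPC, compared with 9 and 7 in OVX-EPC (log2 fold change -0.54, from -0.75 to -0.34 with 1 OVX-EPC library left out). This region passed the filter through its M-EPC libraries alone, so that its lower OVX-EPC values are given as a description.

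The strongest member region, at chr17:45912141-45912540 and 120 kb from the TSS, held 50 and 39 reads in M-EPC, compared with 29 and 37 in OVX-EPC. Its mean signal was above that of 98.4% of all regions. The signals did not overlap, but the replicates numbered 2, at 39 and 37 reads, were nearly level, and the log2 fold change was -0.43 ± 0.28 (SE; limma, Benjamini-Hochberg adjusted p = 0.43). Without M-EPC replicate 1 the log2 fold change was -0.13 and without M-EPC replicate 2 it was -0.73, so its size rested on which M-EPC library was used. The region at chr17:45931290-45931689 held 14 and 19 reads in M-EPC, compared with 10 and 9 in OVX-EPC, with no overlap (log2 fold change -0.73 ± 0.39, SE; limma, Benjamini-Hochberg adjusted p = 0.34).

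At a pair of other strong Vegfa regions the libraries of the groups interleaved. At chr17:45953594-45953993 M-EPC had 16 and 22 reads and OVX-EPC 18 and 20 (log2 fold change 0.0055, 95% interval from -0.67 to 0.68). At chr17:45988541-45988940 M-EPC had 20 and 23 reads and OVX-EPC 19 and 26 (log2 fold change 0.040, 95% interval from -0.60 to 0.68).

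The promoter region of Vegfa at chr17:46032327-46032726, whose sequence is shown above, covers the TSS and the start of exon 1. It held 10 and 6 reads in M-EPC, compared with 9 and 6 in OVX-EPC, so the libraries overlapped. The log2 fold change was -0.080 ± 0.53 (SE), and a difference was not detectable at this depth. The outermost region beyond the 3′ end, at chr17:45894072-45894471, held 5 and 16 reads in M-EPC, compared with 2 and 2 in OVX-EPC (log2 fold change -1.75 ± 0.73, SE; limma without the filter, unadjusted p = 0.017, Benjamini-Hochberg adjusted p = 0.36). It did not pass the filter, and M-EPC replicate 2 held most of its reads. The groups overlapped at 4 further Vegfa regions, at chr17:45939433, chr17:45939866, chr17:45947631 and chr17:45987723. The weakest, at chr17:46039086, had 2 or 3 reads in every library.

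**Figure D2:**
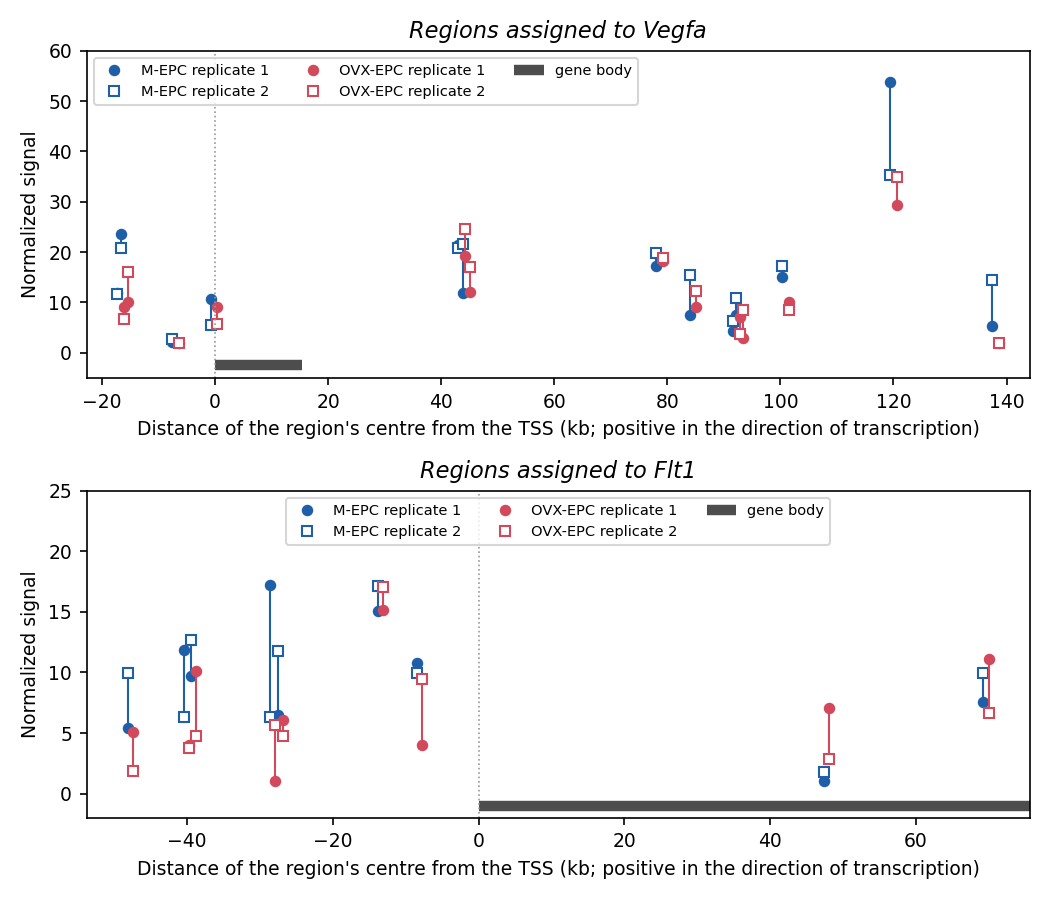
Normalized H3K9me3 signal at each region of Vegfa and Flt1 in the M-EPC (blue) and OVX-EPC (red) libraries by distance from the TSS in kb, with circles for replicate 1, squares for replicate 2, lines joining the replicates of a group, the gene body as a grey bar, and the groups set slightly apart along the axis so that they can be told from each other. OVX-EPC is below M-EPC at the upstream Vegfa regions and at most upstream Flt1 regions, and the libraries interleave at the Vegfa regions 43.6 and 78.6 kb from the TSS and at the Flt1 region 13.4 kb upstream.

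Vegfc, the ligand of lymphatic vessel growth, lies at chr8:54077606-54187096 on the plus strand, and both of its regions are upstream, 155 and 214 kb from the TSS. At chr8:53922874-53923273 M-EPC held 5 and 14 reads and OVX-EPC 10 and 6. At chr8:53863219-53863618 M-EPC held 1 and 9 reads and OVX-EPC 4 and 2. M-EPC replicate 2 was highest at both, while M-EPC replicate 1 was lowest at both. The sums overlapped, at 6.45 and 20.8 in M-EPC, compared with 14.2 and 7.57 in OVX-EPC, with a log2 fold change of -0.16 against a pooled SD of 0.877 (two-sided exact permutation test, p = 1). The direction turned to 0.61 without M-EPC replicate 2 and to 0.25 without OVX-EPC replicate 2.

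Angpt1, the ligand that activates Tek, lies at chr15:42424723-42676977 on the minus strand, and its 4 regions are 123 to 244 kb upstream of the TSS. The region nearest to its TSS is inside the gene body, 106 kb away, and the annotation names Gm17473 for it. Of the 3 Angpt1 regions in the table of M-EPC and OVX-EPC, 1 carried the signal. At chr15:42919480-42919879, shown above, M-EPC held 3 and 10 reads and OVX-EPC 1 and 0, where a count of 0 allows up to 3 reads by counting error alone. The groups did not overlap, with a log2 fold change of -2.20 ± 0.93 (SE; limma without the filter, unadjusted p = 0.018, Benjamini-Hochberg adjusted p = 0.37). The other two had 0 to 2 reads in each library and overlapped. Angpt2, at chr8:18690263-18741562, had 0 regions, and the nearest region, which the annotation gives to Gm16725, was 8.90 kb from the gene and 60.2 kb from its TSS.

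Kdr, the main signalling receptor for Vegfa, lies at chr5:75932827-75978458 on the minus strand. Its 1 region, at chr5:75975161-75975560, was annotated as a promoter region at 2 to 3 kb but lies inside the gene, with its centre 3.10 kb past the TSS and outside every exon. M-EPC held 6 and 7 reads and OVX-EPC 5 and 0. The M-EPC libraries were level and the OVX-EPC libraries were not, so that the log2 fold change of -1.58 (pooled SD 1.30) rested on OVX-EPC replicate 2 and was -0.29 without it (two-sided exact permutation test with all 4 libraries, p = 0.333, the smallest possible). The model without the filter gave an unadjusted p of 0.056 (limma, Benjamini-Hochberg adjusted p = 0.50).

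Flt1, the high-affinity Vegfa receptor, lies at chr5:147561604-147726011 on the minus strand and had the next largest set of regions. Of its 9 regions 7 are upstream, 8.08 to 47.8 kb before the TSS, 1 is in intron 10 of 29 and 1 is over an exon. The annotation numbers this exon 24 of 30, while GENCODE counts it as exon 7 from the 5′ end. Summed over the 9, the signal was 84.9 and 85.8 in M-EPC, compared with 63.8 and 56.7 in OVX-EPC, means of 85.4 and 60.3. The groups did not overlap, and the log2 fold change of -0.50 was larger than the pooled SD of 0.083 (two-sided exact permutation test, p = 0.333, the smallest possible). It ran from -0.58 to -0.42 with each library left out in turn.

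At the strongest Flt1 region, the libraries of the groups interleaved. At chr5:147739236-147739635, 13.4 kb upstream, M-EPC held 14 and 19 reads and OVX-EPC 15 and 18 (log2 fold change 0.00049, 95% interval from -0.71 to 0.71). At chr5:147754084-147754483, shown above, M-EPC held 16 and 7 reads and OVX-EPC 1 and 6, with a log2 fold change of -1.66 ± 0.65 (SE; limma without the filter, unadjusted p = 0.010, Benjamini-Hochberg adjusted p = 0.32). The signals did not overlap, although M-EPC replicate 2 (6.33) and OVX-EPC replicate 2 (5.67) were close. Over the 2 tested regions alone the summed log2 fold change was -0.20, so most of the Flt1 difference came from regions under the filter.

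Upstream of Flt1, 5 further regions had lower signal in OVX-EPC on average, with log2 fold changes from -0.996 to -0.60. The signals of the groups did not overlap in 4 of them. Over all regions, 49.4% were lower on average without the filter and 20.1% were lower without overlap. Reads in M-EPC and OVX-EPC were 10 and 11 against 4 and 10 at chr5:147733894, and 6 and 13 against 6 and 5 at chr5:147753009. They were 11 and 7 against 4 and 4 at chr5:147765916, and 5 and 11 against 5 and 2 at chr5:147773591. Except at chr5:147765916, the lowest M-EPC and highest OVX-EPC reads were equal, so the separation rested on the library factors. The groups overlapped at chr5:147764913-147765312, with 9 and 14 reads in M-EPC, compared with 10 and 5 in OVX-EPC. The log2 fold change there, -0.60 with all libraries, was -0.12 without OVX-EPC replicate 2. Inside the gene, the exon region, at chr5:147678100-147678499, held 1 and 2 reads in M-EPC, compared with 7 and 3 in OVX-EPC, and was the 1 member region of 31 whose signals were higher in both OVX-EPC libraries than in both M-EPC libraries (log2 fold change 1.21 ± 0.88, SE; limma without the filter, unadjusted p = 0.17). The intron region held 7 and 11 reads in M-EPC, compared with 11 and 7 in OVX-EPC, and its libraries overlapped.

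Flt4, the receptor of lymphatic endothelium, had 0 regions at chr11:49609263-49652739. A region named for Scgb3a1 lies 0.796 kb past its 3′ end and 44.3 kb from its TSS. Tek, the angiopoietin receptor, lies at chr4:94739289-94874976 on the plus strand and had 1 region, in intron 2 of 21, at chr4:94787747-94788146 and 48.7 kb past the TSS. M-EPC held 8 and 1 reads there, OVX-EPC 1 and 3. The spread between the M-EPC libraries was wider than the difference between the groups, and the log2 fold change of -0.62 turned to 0.55 without M-EPC replicate 1 (two-sided exact permutation test with all 4 libraries, p = 1).

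Among the co-receptors, Nrp1 had 0 regions at chr8:128358604-128503363, and the nearest region was 155 kb from the gene. Nrp2, at chr1:62703285-62818695 on the plus strand, had 2 regions annotated as promoter, 1 across the TSS and exon 1 at chr1:62703149-62703548 and 1 in the gene at chr1:62706388-62706787, 3.30 kb past the TSS. Across the TSS M-EPC held 8 and 7 reads and OVX-EPC 3 and 9. The other region held 7 and 3 reads in M-EPC, compared with 3 and 2 in OVX-EPC. The libraries overlapped at both, and the summed log2 fold change of -0.55 was close to the pooled SD of 0.517 (two-sided exact permutation test, p = 0.667). It was -0.16 without M-EPC replicate 1 and -0.20 without OVX-EPC replicate 1, and -0.93 and -0.89 without the other library of each group.

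Across the family, the summed signal was lower on average in OVX-EPC for 7 of the 7 genes with regions, though the groups overlapped at Vegfc, Nrp2 and Tek. The share of all named genes with lower sums, or with sums that do not overlap, was not computed. For all member regions together the sum was 319 and 336 in M-EPC, compared with 234 and 241 in OVX-EPC. Its log2 fold change was -0.46 with a pooled SD of 0.043 (two-sided exact permutation test, p = 0.333, the smallest possible). Vegfa and Flt1 made up most of this sum, with M-EPC means of 197 and 85.4 out of 328. Benjamini-Hochberg adjustment over the 7 genes left exact permutation p-values from 0.583 to 1. In 13 of the 31 member regions both OVX-EPC signals were below both M-EPC signals, against 20.1% of all regions, and in 1 they were above, against 21.6%. Most of the 13 belong to Vegfa and Flt1, and regions of the same gene read in the same libraries are not independent. Some of the 13 separated only after division by the library factors. The lowest M-EPC reads equalled the highest OVX-EPC reads at Flt1 chr5:147733894 (10), chr5:147753009 (6) and chr5:147773591 (5) and at Vegfa chr17:46039086 (2). Whether the separation holds under TMM was not tested. Among the 11 tested regions both OVX-EPC signals were lower in 4, 1 of which passed the filter through M-EPC alone, against 31.0% of all tested regions, and higher in 0, against 16.9%. Without the filter 4 of 31 regions had an unadjusted p under 0.05 and lower signal in OVX-EPC in limma, against 5.26% of all regions, and none (0) had an adjusted p under 0.05.

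The median log2 fold change of the 11 tested regions was -0.15, with 8 lower and 3 higher in OVX-EPC. Over all tested regions the median was -0.16, with 62.3% lower. Without the filter the median of the 31 members was -0.44, with 25 lower and 6 higher, while that of all 58493 regions was 0.0099, with 49.4% lower. Most of these members also belong to Vegfa and Flt1. For the 24 distal members the median was -0.49, against 0.17 for all distal regions, and the 4 promoter members were all lower on average, with a median of -0.58, against -0.21 for all promoter regions. Part of the direction depends on scaling: TMM factors brought the median of all tested regions from -0.16 to -0.0077 and that of the tested members to 0.0035. TMM sets its factors on the assumption that most regions do not differ, so a median of all tested regions near 0 follows from it. A difference across most regions and one of scaling cannot be told apart here. Under TMM the summed log2 fold change was -0.23 at Vegfa and -0.34 at Flt1, and the sums of all 7 genes stayed lower in OVX-EPC on average.

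**Figure D3:**
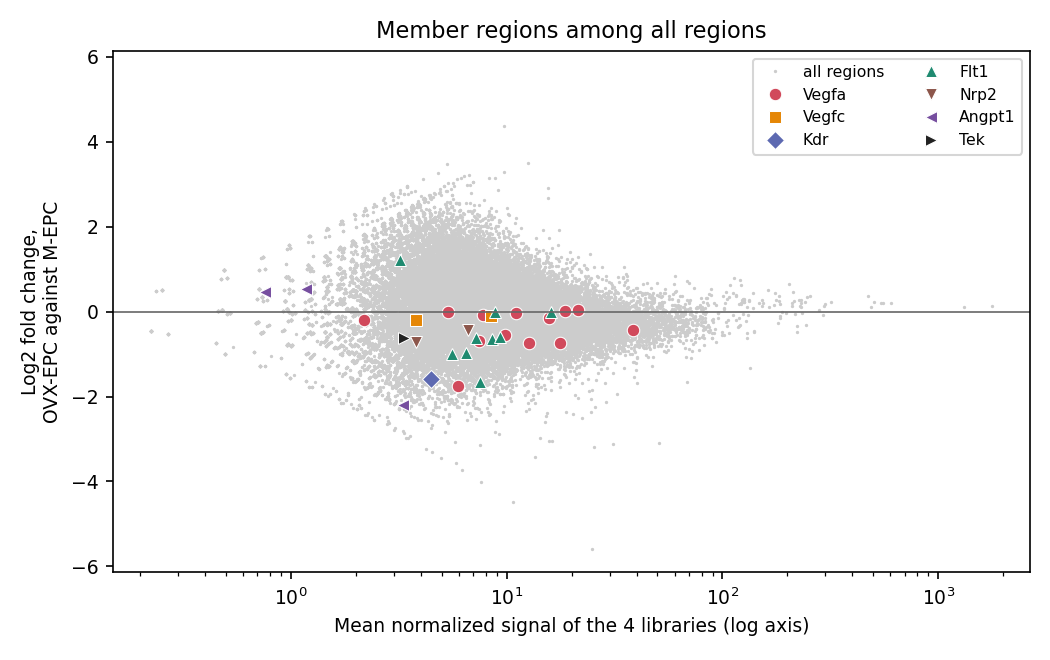
Log2 fold change of OVX-EPC against M-EPC, fitted without a filter, by mean normalized signal of the 4 libraries on a log axis, with all 58493 regions in grey and the 31 member regions in colour by gene. Of the members 25 lie below 0 and 6 above.

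For F-EPC the members that both libraries cover were the 2 regions of Nrp2 and the 4 of Angpt1. None (0) passed the filter in the comparisons of F-EPC, where 1.79% of the 8139 regions tested differed against M-EPC and 0.0127% of the 7897 tested differed between OVX-EPC and F-EPC (limma), and without the filter 0 of the 6 had an unadjusted p under 0.05, where 12.4% of all covered regions had one against M-EPC and 4.89% between OVX-EPC and F-EPC. At the TSS of Nrp2 F-EPC held 7 and 3 reads, and at the region further in 14 and 5. Scaled to 100000 reads in covered regions, Nrp2 was at 7.49 and 4.25 in the M-EPC libraries, 7.28 and 3.17 in those of F-EPC, and 2.87 and 4.93 in those of OVX-EPC. The 3 groups overlapped. The summed log2 fold change was -0.28 when F-EPC was set against M-EPC and -0.30 when OVX-EPC was set against F-EPC (two-sided exact permutation tests, p = 0.667 each). Over all tested covered regions the median was -0.19 for F-EPC against M-EPC and 0.0022 with TMM scaling. For OVX-EPC against F-EPC it was 0.029, and -0.0046 with TMM, where medians near 0 follow from how TMM sets its factors. The Angpt1 sums below carry the authors' scaling, as those of Nrp2 do.

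At Angpt1 F-EPC held 3 and 0, 4 and 0, 5 and 1, and 1 and 4 reads in its 4 regions, in order of position. The first of these, at chr15:42799630-42800029, lies wholly in masked repeat sequence and had 0 reads in each M-EPC and OVX-EPC library. Scaled in the same way, Angpt1 was at 2.00 and 5.10 in the M-EPC libraries, 4.51 and 1.98 in those of F-EPC, and 1.44 and 1.34 in those of OVX-EPC. M-EPC and F-EPC overlapped, and both OVX-EPC libraries were lower than every other library. The summed log2 fold change was -0.15 when F-EPC was set against M-EPC (two-sided exact permutation test, p = 0.667) and -0.91 when OVX-EPC was set against F-EPC (p = 0.333 in the same exact test, the smallest possible). These comparisons share libraries, so they are not independent of each other, and no library held more than 13 reads at the gene.

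**Figure D4:**
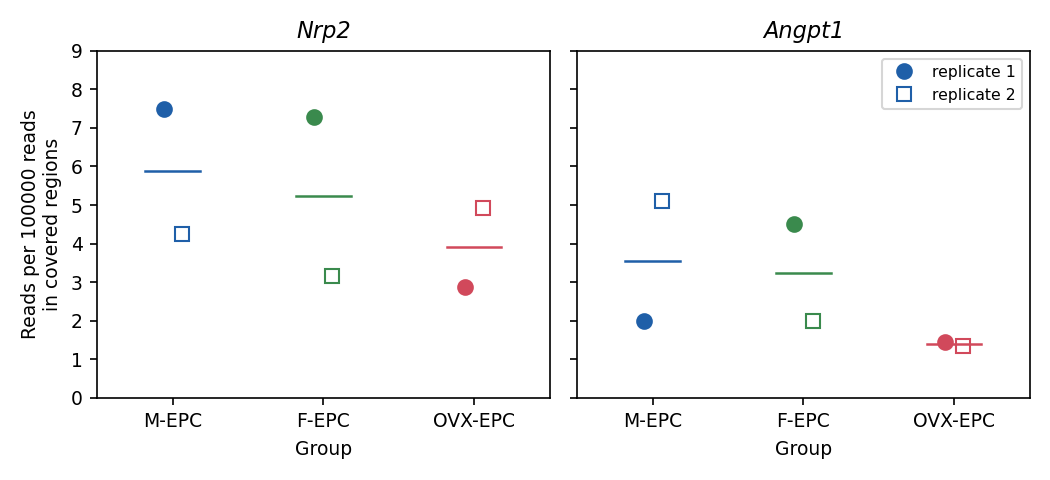
Reads at the regions of Nrp2 and Angpt1 in the 6 libraries, per 100000 reads in covered regions, with filled circles for replicate 1, open squares for replicate 2 and bars for group means. At Nrp2 the groups overlap between 2.87 and 7.49, and at Angpt1 the OVX-EPC libraries, at 1.44 and 1.34, are below the other libraries.

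To set the members beside the rest of the pathway, a further list was counted. This list of 56 other ligands, receptors, signal carriers and targets held 40 genes with 102 regions, 25 of them in promoters, and 38 regions were tested for OVX-EPC against M-EPC. None (0) differed in limma, edgeR or DESeq2 at an adjusted p under 0.05, 6 were lower and 0 higher at an unadjusted p under 0.05 in limma, where 11.1% of all tested regions were lower and 5.07% higher. At that unadjusted threshold there were 3 with TMM scaling, 4 in edgeR and 1 in DESeq2. The median log2 fold change of the 38 was -0.32, against -0.16 for all tested regions. The lowest p was downstream of Plxnd1, a semaphorin receptor of endothelium, at chr6:115952277-115952676, with 34 and 39 reads in M-EPC, compared with 14 and 17 in OVX-EPC. Its log2 fold change was -1.20 ± 0.304 (SE; limma, Benjamini-Hochberg adjusted p = 0.0765). Without the filter this region passed the threshold (limma, Benjamini-Hochberg adjusted p = 0.044), as it did with a minimum of 30 (0.0153), while DESeq2 gave 1.00. With TMM scaling the adjusted p was 0.11 (limma), and with a library left out the log2 fold change ran from -1.28 to -1.11. Another tested region of Plxnd1, at chr6:115994981, had a log2 fold change of -0.030 (limma, unadjusted p = 0.94). The region of Lyve1, a lymphatic endothelial receptor, held 22 and 29 reads in M-EPC, compared with 10 and 13 in OVX-EPC (log2 fold change -1.09; limma, Benjamini-Hochberg adjusted p = 0.156). The remaining 4 were 2 regions of Shb, an adaptor of Kdr, and 1 each of Pik3r1, a subunit of PI3-kinase, and Prox1, the transcription factor of lymphatic identity.

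H3K9me3 regions do not measure expression, so the identity of the cells can be described only by where the mark lies. Of 6 endothelial genes 4 had regions, 25 in all, with 148 and 201 reads in M-EPC, compared with 207 and 195 in OVX-EPC, and Tie1 and Eng had 0. Cdh5 held 15 of the 25, with 78 and 129 reads in M-EPC, compared with 139 and 134 in OVX-EPC. In the same order, Vwf had 43 and 48 against 36 and 33, and Pecam1 26 and 21 against 25 and 23. Emcn had 1 and 3 against 7 and 5. Ly6a, which encodes part of the sorted Sca-1 antigen, had 0 regions. Of 9 genes of other marrow cells 6 had regions, 8 in all, with 82 and 76 reads in M-EPC, compared with 51 and 65 in OVX-EPC, and Ptprc and Cd3e were among those with 0. Of these 8 regions, those of the macrophage genes Cd68 (21 and 21 reads in M-EPC, 12 and 9 in OVX-EPC) and Lyz2 (19 and 14 against 8 and 9) were lower in both OVX-EPC libraries, and 0 of the 9 marker regions tested had an adjusted p under 0.05 in limma. At an unadjusted p under 0.05 in limma there were 3 of the endothelial list, all of Cdh5, with 2 higher and 1 lower in OVX-EPC, and 2 of the other list, those of Cd68 and Lyz2, against the same 11.1% lower and 5.07% higher of all tested regions. The part of cell makeup in the values of Vegfa and Flt1 was not tested.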

How the data were processed

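H3K9me3 CUT&Tag libraries of mouse EPCs, 2 per group, were analysed from 3 tables, 1 for each pair of groups. Per the study's methods, paired-end reads were aligned to mm10 with Bowtie2, duplicates were removed with Picard, reads of low mapping quality were discarded, and peaks were called with MACS and annotated. The submitters' processing notes name BWA and MACS2. Discarding poorly mapped reads lowers signal in repeats. The deposited signal is a read count that the authors divided by 1 size factor per library and table. All 701792 values (100%) gave whole reads within 1e-06. Columns of the authors' own comparisons (mean signal, log2 fold changes, p-values, adjusted p-values) were not used.

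The main test was limma (version 3.58.1, R 4.3.3), with a trend, on log2(signal + 1) of the 4 libraries of a table, without covariates, for regions with at least 10 in at least 2 libraries, with Benjamini-Hochberg adjustment over all tested regions. F-EPC comparisons used covered regions. Gene sums were tested by exact permutation, two-sided (SciPy 1.17.1). edgeR (4.0.16) and DESeq2 (1.42.0) on recovered reads, TMM and total scaling, other pseudocounts and filters, the replicate number as a block and each library left out were the alternatives. Fold changes on this scale understate differences at weak regions. Intervals cover the model's error, and floors counting error only. On simulated data with known changes, the fit called most large increases but few of the smaller changes and few of the decreases, so a count of 0 does not show that regions are alike.

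Gene positions are from GENCODE M21, sequences from RefSeq GRCm38, in which 0 regions passed a chromosome end. Text names every region of a member that the comparison turns on and, of the pathway list, regions with an unadjusted p under 0.05. Members and lists were chosen with earlier results of these data known.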

Additional observations from a re-analysis of the deposited data

Results flagged for a closer look

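F-EPC replicate 2 held 180 reads at the 13 regions of Vegfa, a library that no comparison at this gene uses, because F-EPC replicate 1 has no reads there. This was noted because it is signal outside the comparisons. Scaled as in the table of M-EPC and F-EPC, the sum was 166, compared with 224 and 227 in the M-EPC libraries. The strongest region was again the one at chr17:45912141, with 43 reads and a signal of 39.6, compared with 62.5 and 39.5 in M-EPC. At the promoter the signal was 12.9, compared with 12.5 and 6.08, and at the upstream region chr17:46048194 it was 18.4, compared with 27.5 and 23.3. With 1 library there is no replicate check, and the size factor of a library with absent reads is uncertain, so no difference was tested.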

How the results depend on the processing

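None (0) of the member regions tested for OVX-EPC against M-EPC had an adjusted p under 0.05 under any alternative. Taking absent F-EPC reads as 0 gave 3 member regions against M-EPC and 1 against OVX-EPC, all where at least 1 F-EPC library holds no reads. Over all regions 76 differed (8 higher, 68 lower) as tested in the report, 8 with DESeq2, 50 with TMM (15 higher, 35 lower), 137 with edgeR (66 higher, 71 lower), 40 with a pseudocount of 0.1, 123 with a minimum of 30 and 145 with no filter. With a library left out the count was 0 to 23, and 0 without either M-EPC library. With the replicate number as a block the count was 103, and 0 of the members. The correlation of same-numbered deviations was -0.018 over the 16931 tested regions. At this depth a value near 0 does not show that same-numbered libraries are unrelated. Of the other pathway regions 1 was called with a minimum of 30 and 1 with no filter, Plxnd1 both times.

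The median over tested members moved from -0.15 to 0.0035 with TMM, to -0.43 with a minimum of 30 (1 region) and to -0.44 with no filter, and ranged from -0.53 to 0.031 with a library left out, where it was 0.017 without M-EPC replicate 2 and 0.031 without OVX-EPC replicate 1. Limited to tested regions, sums could be formed for 3 genes, 3 of them lower, and 6 to 7 of 7 sums were lower with a library left out. With a library left out the sum ran from -0.93 to 0.61 at Vegfc and from -1.79 to 0.55 at Tek. Regions near 0 changed sign: Vegfa chr17:45947631 was 0.035 with DESeq2, 0.12 with TMM, 0.025 with edgeR and 0.011 with total scaling, and -0.50 to 0.17 with a library left out. With TMM Vegfa chr17:45987723 was 0.0035 and Vegfc chr8:53922874 0.028, and with a library left out they ran from -0.56 to 0.26 and from -0.66 to 0.25. The same ranges were -0.094 to 0.10 at Vegfa chr17:45953594, -0.13 to 0.21 at Vegfa chr17:45988541 and -0.089 to 0.090 at Flt1 chr5:147739236. The cause was not tested. Depth limits single regions: the median was 7 reads per member region and library, 20 of 31 regions failed the filter, and 10 had under 10 reads in every library.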
